A study of Mus musculus with 4 samples.

Results

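The genes described here encode the motors that move along microtubules, namely the kinesins, the dynein chains and the subunits of dynactin, in the E14.5 mouse cortex with and without *Qk*, the gene of the RNA-binding protein Quaking. They were taken by symbol, as every gene named Kif followed by a number or the letter c, every gene named Dync and every gene named Dctn followed by a number. This gave 55 of the 23038 genes in the files, made up of 42 kinesins, 7 dynein genes and 6 dynactin genes. These genes and the gene lists below were chosen with earlier results of these data known. Of the 38240 alternative splicing events in the files, 188 belonged to 43 of these genes. The control embryos (2 samples), labelled wild type, carried *Qk* alleles flanked by loxP sites without Cre, as the study states. The *Qk* cKO embryos (2 samples) carried the same *Qk* alleles and a *Nestin*-Cre transgene, which is active in neural progenitors and the cells derived from them, so cells of other origin in the cortex keep *Qk*. Polyadenylated RNA of the cortex was sequenced from each sample. The study describes control and *Qk* cKO embryos as littermates and the replicates as independent. The edgeR p-values below set the difference between groups against the spread within groups, as estimated from these 4 samples.

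Kinesins and dynein convert the energy of ATP into steps along microtubules, most kinesins toward the plus end and dynein toward the minus end. Dynactin is a large complex that dynein needs in order to bind many of its cargoes and to move over long distances. In a developing cortex, progenitors use mitotic kinesins to build the spindle and to complete cell division, and neurons use transport kinesins and dynein to carry vesicles, organelles and the nucleus. Several of these genes are spliced in alternative forms, often through very short exons.

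Between 37942046 and 42994832 tags, the unit that the authors' software counts, were assigned to genes per sample. The junction of *Qk* exons 2 and 3, which the deletion removes, had 635 and 565 tags in the controls and 63 and 68 in the *Qk* cKO samples, while the junction of exons 3 and 4 outside the deletion had 573.97 and 439.4 tags in the controls and 897.5 and 830.3 in the *Qk* cKO samples. The labels therefore matched the targeted exon. The neuronal marker genes measured (6 of a list of 7, with *Tubb3* and *Dcx*) summed to between 1143 and 1255 RPKM per sample, RPKM being tags per kilobase of exon scaled to the size of the library. The blood markers measured (4 of 6, mostly globins) summed to 452.1 and 429.1 RPKM in control and 585.7 and 438.7 RPKM in *Qk* cKO.

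Splicing and transcript levels of the motor genes were compared between control and *Qk* cKO with different tests. By Fisher's exact test on summed tags, inclusion of a 21-nt exon of *Kif21a* and a 33-nt exon of *Kif16b* was lower in *Qk* cKO. Inclusion of a 105-nt exon of *Kif13a* was higher. So was that of a pair of very short exons of *Dctn1*, but only against 1 skipping junction with at most 11.8 tags per sample. In edgeR, which takes the spread between samples into account, no motor gene was called changed in level and no motor splicing event was called. The inclusion of an event (*I*) is the share of its junction tags, per junction, that join the first of 2 isoforms (for a cassette exon, the isoform with the exon). Δ*I* is the control inclusion minus the *Qk* cKO inclusion, each from tags summed over its replicates, so a positive Δ*I* means lower inclusion in *Qk* cKO. Tests were limited to events with a coverage (the smallest sum of junction tags by isoform or by group) of at least 20, which left 88 motor events in 29 genes out of 11500 events in all.

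By Fisher's exact test of isoform tags, 14 of the 88 motor events were called at p below 0.01 and a Benjamini-Hochberg FDR below 0.1 within the event type. This is 15.9% of the motor events, against 7.50% of all tested events. Inclusion was lower in *Qk* cKO in 8 of the 14 (9.09% of the motor events, against 3.53% of all) and higher in 6 (6.82%, against 3.97%). An absolute Δ*I* of at least 0.1 was reached in 7 of them, 7.95% of the motor events, against 3.30% of all tested events. The called events lay in 6 of the 29 genes (*Kif21a*, *Dctn1*, *Kif13a*, *Kif16b*, *Dync1i1* and *Dync1i2*), 20.7% of motor genes with a tested event, against 10.9% of all such genes. Of the 14, 9 were single cassette exons, 4 were tandem cassettes and 1 was an alternative 3′ splice site.

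The 14 calls were not independent. Events of one gene with the same outer splice sites share the tags of the skipping junction, and counted once they came to 9 called sets out of 56, or 16.1%, against 7.43% of all 9685 sets. With an absolute Δ*I* of at least 0.1 there were 5 such sets, 8.93%, against 3.31% of all. In 13 of the 14 called events the groups did not overlap, much as over all genes, where 790 of the 862 called events did not. Events both called and without overlap made up 14.8% of the motor events, against 6.87% of all, so this contrast repeats that of the calls. Without control replicate 1, 4 of 80 motor events were called, a share close to the 4.94% of all events. Without *Qk* cKO replicate 1, 8 of 83 were called (9.64%, against 6.60%). At a coverage of at least 50, 9 of 63 were called (14.3%, against 9.50%). The summed tags of Fisher's test leave out the variation between embryos. A test that estimates that variation (an interaction of isoform and genotype in edgeR) called 0 of the 88 motor events, against 0.557% of all events, and 10 motor events, or 11.4%, had an unadjusted p below 0.05 in it, against 7.17% of all events. The calls below are those of Fisher's exact test, with the edgeR p-value of each event beside it.

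**Figure D1:**
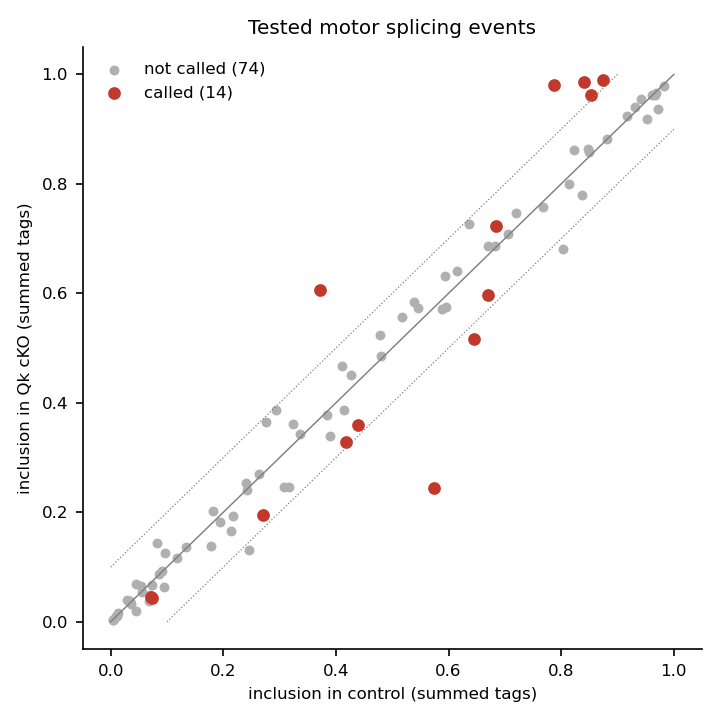
Inclusion of each of the 88 tested motor events in *Qk* cKO (vertical axis) against control (horizontal axis), both from tags summed over 2 replicates, as fractions. Red points are the 14 called events, grey points the 74 not called, the solid line marks equal inclusion and the dotted lines a difference of 0.1. Most events lie near the line, and the called event farthest below it is the *Kif16b* exon, with an inclusion of 0.573 in control and 0.244 in *Qk* cKO.

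*Kif21a* (chr15:90933276-91049948, minus strand, mm10) encodes a kinesin-4 motor that acts on the growth of microtubule ends and is mutated in a congenital disorder of the eye muscles. It had 20 of the 88 tested events and 6 of the 14 calls. All of its called events were lower in *Qk* cKO. The 3 cassette exons of *Kif21a* that were called are shown as mRNA-sense sequence from GENCODE M21 transcripts, with the exon in capitals and 20 nt of the neighbouring exons in lower case, because their sizes (21, 39 and 108 nt) keep the reading frame.
Kif21a 21-nt exon, chr15:90964975-90964995, minus strand: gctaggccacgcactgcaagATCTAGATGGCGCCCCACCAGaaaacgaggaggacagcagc
Kif21a 39-nt exon, chr15:90976471-90976509, minus strand: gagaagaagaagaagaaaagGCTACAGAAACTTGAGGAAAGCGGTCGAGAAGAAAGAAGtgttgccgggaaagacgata
Kif21a 108-nt exon, chr15:90952711-90952818, minus strand: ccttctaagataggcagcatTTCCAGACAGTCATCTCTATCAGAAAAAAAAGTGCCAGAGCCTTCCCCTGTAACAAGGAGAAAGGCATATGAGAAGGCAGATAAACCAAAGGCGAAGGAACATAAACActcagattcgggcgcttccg

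The 21-nt exon of *Kif21a*, exon 23 of 36 in transcript Kif21a-201 and coding in all 3 annotated transcripts that hold it, had the strongest difference of the gene. Its inclusion was 0.650 and 0.641 in control and 0.509 and 0.525 in *Qk* cKO, so the groups did not overlap (Δ*I* 0.129). The junction that skips it had 131.4 and 118.4 tags in the controls and 193.6 and 158.04 in the *Qk* cKO samples. On the inclusion side, the upstream junction had 239.6 and 206.6 tags in the controls and 197.4 and 172.0 in the *Qk* cKO samples. Thus skipping tags were higher and inclusion tags lower in both *Qk* cKO samples (Fisher's exact test, p = 4.21e-06, FDR = 0.000227, and edgeR interaction test, p = 0.00682, FDR = 0.313). The call by Fisher's test held with each sample left out in turn.

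The 39-nt exon, exon 12 of 37 in Kif21a-202, was included in a minority of tags. Its inclusion was 0.239 and 0.312 in control and 0.193 and 0.196 in *Qk* cKO (Δ*I* 0.0764, with p = 1.40e-05 and FDR = 0.000664 by Fisher's exact test and p = 0.0339 and FDR = 0.515 by the edgeR interaction test). The 2 controls differed from each other more than control replicate 1 did from the *Qk* cKO samples, and without control replicate 2 the Δ*I* was 0.0445 and the event was not called (FDR = 0.355).

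The 108-nt exon, exon 28 of 37 in Kif21a-202, opens a stretch of exons that are combined in several ways, with exons of 129, 39 and 12 or 15 nt after it. Its inclusion, against joining the outer exons directly, was 0.691 and 0.650 in control and 0.568 and 0.630 in *Qk* cKO (Δ*I* 0.0729, with p = 0.00423 and FDR = 0.057 by Fisher's exact test and p = 0.0847 and FDR = 0.634 by the edgeR interaction test). The other 3 *Kif21a* calls were tandem cassettes of this stretch that share its skipping junction, with Δ*I* between 0.0284 and 0.0888. That junction, which leaves out the whole stretch, had 64.995 and 79 tags in the controls and 115.3 and 85.3 in the *Qk* cKO samples. The upstream inclusion junction of the 108-nt exon had 185.0 and 179.3 tags in the controls and 180.3 and 176.6 in the *Qk* cKO samples, so the 2 groups differed mainly in the skipping tags, and most in *Qk* cKO replicate 1. Without *Qk* cKO replicate 1 the Δ*I* of the 108-nt exon was 0.0396 (FDR = 0.544), and without control replicate 1 it was 0.053 (FDR = 0.555). With junction tags only, the 108-nt exon missed the threshold (FDR = 0.105). Events between exons inside the stretch were not called. Inclusion of the 129-nt exon between the 108-nt exon and the outer exon was 0.228 and 0.159 in control and 0.187 and 0.179 in *Qk* cKO.

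*Dctn1* (chr6:83165920-83200117, plus strand) encodes the largest dynactin subunit, which binds microtubules and the dynein intermediate chains. It had 10 tested events, of which 3 were called, all higher in *Qk* cKO and all resting on 1 skipping junction. The events concern 3 neighbouring exons of 21, 18 and 21 nt, which are printed together because transcripts combine them in different ways.
Dctn1, the first exon, 21 nt, chr6:83183936-83183956, plus strand: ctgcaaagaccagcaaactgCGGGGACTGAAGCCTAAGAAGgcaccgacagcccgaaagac
Dctn1, the second exon, 18 nt, chr6:83186428-83186445, plus strand: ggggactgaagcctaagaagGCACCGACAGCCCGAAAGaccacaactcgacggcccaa
Dctn1, the third exon, 21 nt, chr6:83187764-83187784, plus strand: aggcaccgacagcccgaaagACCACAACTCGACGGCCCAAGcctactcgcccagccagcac

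The junction from the upstream exon straight to the third exon of *Dctn1*, skipping the first 2, had 11.8 and 8.86 tags in the controls and 1.06 and 0.459 in the *Qk* cKO samples. These few tags set all 3 calls, and with either control left out the events fell under the coverage minimum and could not be tested. Against this junction, inclusion of the first exon was 0.833 and 0.851 in control and 0.978 and 0.992 in *Qk* cKO (Δ*I* −0.145, with p = 0.000128 and FDR = 0.00415 by Fisher's exact test and p = 0.00178 and FDR = 0.147 by the edgeR interaction test). Inclusion of the second exon was 0.775 and 0.800 in control and 0.963 and 0.991 in *Qk* cKO (Δ*I* −0.195, with p = 4.75e-05 and FDR = 0.00185 by Fisher's exact test and p = 0.00182 and FDR = 0.147 by the edgeR interaction test). Both inclusion values average 2 unequal junctions, so neither is the share of transcripts with that exon. For the second exon, the upstream junction had at most 2 tags per sample and the junction to the third exon 54.8 to 103. For the first exon, the upstream junction had 83.2 to 105.98 tags and the junction to the third exon 10.2 to 24. Without *Qk* cKO replicate 2 the second exon was not called (Δ*I* −0.177, FDR = 0.127). The coverage of the 3 events was 22.1, just above the minimum of 20, and they were not tested at a minimum of 50. The tandem event with both exons had a Δ*I* of −0.115 (Fisher's exact test, p = 5.76e-05, FDR = 0.0022, and edgeR interaction test, p = 0.00158, FDR = 0.121).

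The other junctions of this stretch of *Dctn1* did not separate the groups in the same way. The junction that leaves out all 3 exons had 81.2 and 63.1 tags in the controls and 54.0 and 58.5 in the *Qk* cKO samples. Inclusion of the third exon against this junction was 0.440 and 0.524 in control and 0.400 and 0.544 in *Qk* cKO, so the groups overlapped (Δ*I* −0.0053, with p = 0.655 and FDR = 0.925 by Fisher's exact test). The second exon was nearly always joined to the first, since the junction from the upstream exon to the second exon had 1.02 and 0 tags in the controls and 0.777 and 2 in the *Qk* cKO samples. In transcripts that held the first exon, inclusion of the second was 0.851 and 0.820 in control and 0.810 and 0.765 in *Qk* cKO, and this event was not called (Δ*I* 0.0557, with p = 0.258 and FDR = 0.62 by Fisher's exact test).

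**Figure D2:**
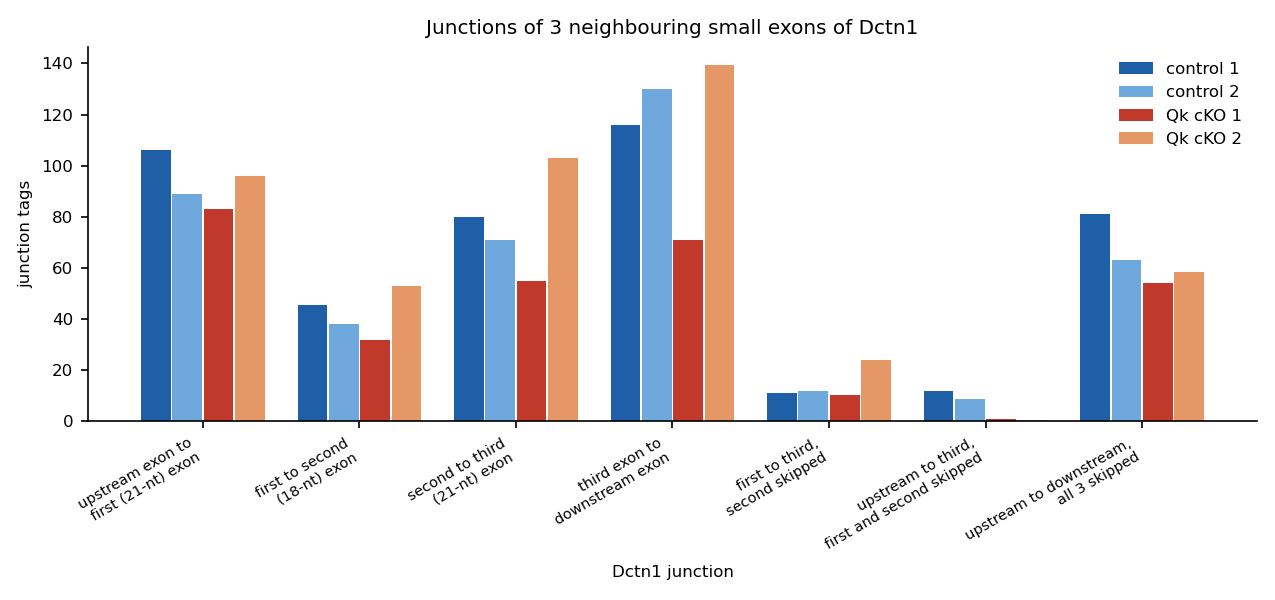
Junction tags (vertical axis) in each of the 4 samples for 7 junctions of the 3 short exons of *Dctn1* (horizontal axis). Bars are single samples, with no scaling for depth. The junction from the upstream exon to the third exon has 11.8 and 8.86 tags in control and at most 1.06 in *Qk* cKO, while the junction that skips all 3 exons has 54.0 to 81.2 tags in the 4 samples.

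*Kif13a* and *Kif16b* encode kinesin-3 motors of the endosomal system, *Kif13a* for recycling endosomes and *Kif16b* for early endosomes. Their called exons went in opposite directions. Both exons with an absolute Δ*I* of at least 0.1 are coding in 1 annotated transcript each, and each is a multiple of 3 in length.
Kif13a 105-nt exon, chr13:46760663-46760767, minus strand: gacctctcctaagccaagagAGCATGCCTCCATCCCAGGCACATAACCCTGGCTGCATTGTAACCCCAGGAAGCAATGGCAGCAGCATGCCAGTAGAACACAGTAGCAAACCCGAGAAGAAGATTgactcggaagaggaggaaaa
Kif16b 33-nt exon, chr2:142715062-142715094, minus strand: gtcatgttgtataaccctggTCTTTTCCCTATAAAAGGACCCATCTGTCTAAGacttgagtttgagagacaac

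The 105-nt exon of *Kif13a* was included at 0.362 and 0.382 in control and at 0.623 and 0.594 in *Qk* cKO, with no overlap (Δ*I* −0.235, with p = 0.000394 and FDR = 0.011 by Fisher's exact test and p = 0.013 and FDR = 0.373 by the edgeR interaction test). Its skipping junction had 37.6 and 34.0 tags in the controls and 20 and 29.0 in the *Qk* cKO samples, and its upstream inclusion junction had 25.4 and 29.0 tags in the controls and 30 and 46.0 in the *Qk* cKO samples. Without control replicate 1 the event was not called, at a Δ*I* of −0.225 (FDR = 0.142). A 72-nt exon of *Kif13a* (chr13:46750702-46750773), outside the coding sequence in its 1 annotated transcript, was included at 0.0656 and 0.0769 in control and at 0.0303 and 0.0629 in *Qk* cKO, and was called by Fisher's exact test with a Δ*I* of 0.0267 (p = 0.00905, FDR = 0.0979, and edgeR interaction test, p = 0.0339, FDR = 0.515). With junction tags only, the FDR of the 72-nt exon was 0.538.

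The 33-nt exon of *Kif16b* had the largest absolute Δ*I* of the motor events called. Its inclusion was 0.609 and 0.517 in control and 0.262 and 0.200 in *Qk* cKO, with no overlap (Δ*I* 0.329, with p = 0.00162 and FDR = 0.0308 by Fisher's exact test and p = 0.0181 and FDR = 0.42 by the edgeR interaction test). The gene was weakly expressed, so these values rest on few tags. The skipping junction had 9 and 7 tags in the controls and 24 and 10 in the *Qk* cKO samples, and the upstream inclusion junction had 14 and 6 in the controls and 8 and 2 in the *Qk* cKO samples. The 95% Wilson interval of the inclusion was 0.408 to 0.778 in control replicate 1 and 0.047 to 0.448 in *Qk* cKO replicate 2, so single samples overlapped within their counting error. These intervals, here and below, cover counting error only. Without control replicate 1 the Δ*I* was 0.273 and the event was not called (FDR = 0.277).

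Of the dynein genes, *Dync1i2* and *Dync1i1*, which encode the intermediate chains that link dynein to dynactin, had 1 called event each. A 60-nt coding exon of *Dync1i2* (chr2:71233649-71233708) had the highest coverage of all called motor events, 1367 tags. Its inclusion was 0.687 and 0.680 in control and 0.736 and 0.710 in *Qk* cKO, a small difference without overlap (Δ*I* −0.0397, with p = 0.00253 and FDR = 0.041 by Fisher's exact test and p = 0.0765 and FDR = 0.622 by the edgeR interaction test). It was not called without control replicate 1 (FDR = 0.14), without control replicate 2 (FDR = 0.154) or without *Qk* cKO replicate 1 (FDR = 0.447). The use of 1 alternative 3′ splice site of *Dync1i1* over another was 0.781 and 0.961 in control and 0.985 and 0.938 in *Qk* cKO. This was the called event in which the groups overlapped, since control replicate 2 lay between the *Qk* cKO samples (Δ*I* −0.109, with p = 0.00473 and FDR = 0.0817 by Fisher's exact test and p = 0.0939 and FDR = 0.707 by the edgeR interaction test). Without *Qk* cKO replicate 1 the Δ*I* was −0.0846 and the event was not called (FDR = 0.552), and without control replicate 2 the Δ*I* was −0.182.

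**Figure D3:**
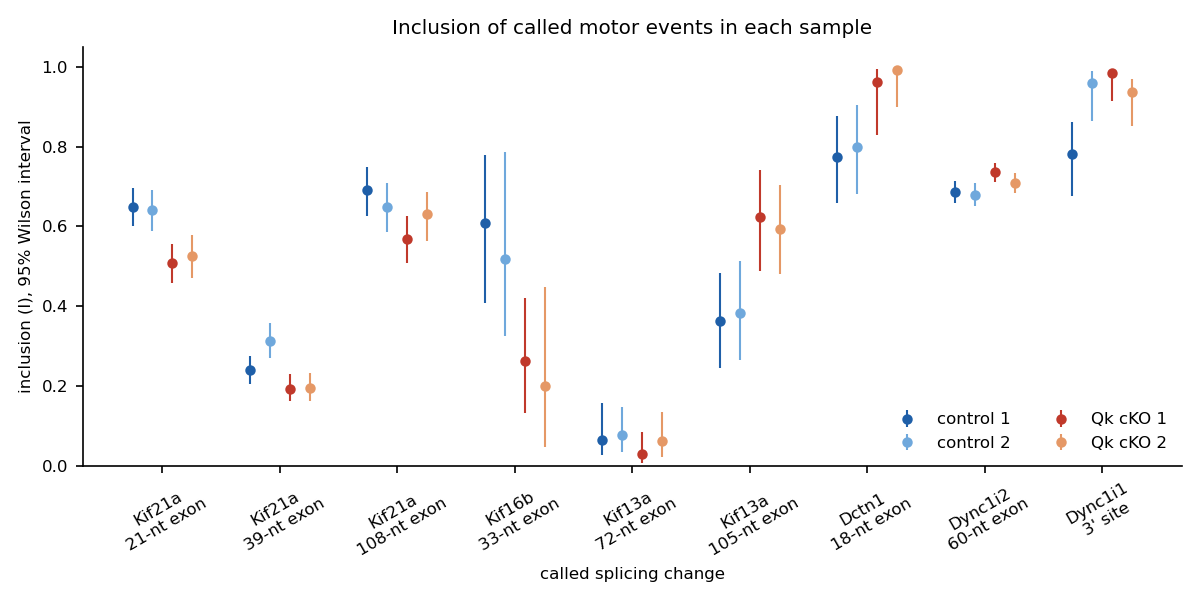
Inclusion as a fraction (vertical axis, with 95% Wilson intervals from the junction tags) in each of the 4 samples for 9 called splicing changes (horizontal axis), 1 for each pair of outer splice sites. Blue points are the controls and red points the *Qk* cKO samples. The *Kif21a* 21-nt exon falls from 0.650 and 0.641 to 0.509 and 0.525 with narrow intervals, the *Kif16b* exon has wide ones, and the *Dync1i1* splice site overlaps.

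The other 74 tested motor events were not called, and 72 of them had an absolute Δ*I* under 0.1. The other 2, named after their values were seen, were a 60-nt exon of *Dync1i1* (Δ*I* 0.123, FDR = 0.237 by Fisher's exact test) and a 63-nt exon of *Kif13b* (Δ*I* 0.115, FDR = 0.477). Among those of highest coverage was a 24-nt exon of *Kif1a* (chr1:93026832-93026855), the motor of synaptic vesicle precursors, with an inclusion of 0.319 and 0.329 in control and 0.336 and 0.390 in *Qk* cKO (Δ*I* −0.0378, Fisher's exact test, FDR = 0.354). A 180-nt exon of *Kif21b* (chr1:136173472-136173651) was included at 0.201 and 0.233 in control and at 0.191 and 0.197 in *Qk* cKO (Δ*I* 0.0229, FDR = 0.326 by Fisher's exact test). The alternative 3′ splice site of *Kif1b* was used at 0.405 and 0.416 in control and at 0.478 and 0.457 in *Qk* cKO (Δ*I* −0.0567, Fisher's exact test, FDR = 0.662). In these 3 events the groups did not overlap, but the test missed the threshold. Called or not, the groups did not overlap in 30 of the 88 tested motor events (34.1%). No share over all tested events is given beside it, so lack of overlap alone was not read as a change. A 42-nt exon of *Kif23* (chr9:61933229-61933270), which encodes a motor of cytokinesis, had a larger difference, with an inclusion of 0.301 and 0.282 in control and 0.350 and 0.416 in *Qk* cKO (Δ*I* −0.0946, Fisher's exact test, FDR = 0.463). A 114-nt exon of the microtubule depolymerase gene *Kif2a* (chr13:106969704-106969817) overlapped, with 0.663 and 0.527 in control and 0.596 and 0.675 in *Qk* cKO (Δ*I* −0.0381). The choice between the first and second short exons of *Dctn1* overlapped as well, with 0.591 and 0.587 in control and 0.627 and 0.533 in *Qk* cKO (Δ*I* 0.0186).

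Alternative exons of motor genes were shorter and more often a multiple of 3 than those of all genes. Of 44 distinct tested cassette exons in motor genes, 38 (86.4%) had a length divisible by 3, against 53.0% of the 4372 tested in all genes. At most 30 nt were found in 14 of the 44 (31.8%), against 7.39% of all. All 9 called motor cassette exons were multiples of 3 and 3 of them had at most 30 nt, with a median of 39 nt and a range of 18 to 108 nt. These shares are descriptions, since exons of a gene are not independent.

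For transcript levels, the quasi-likelihood test of edgeR was run over all 18834 genes with at least 1 tag, 53 of them motor genes. The other 2, *Kif2b* and *Kif4-ps*, had 0 tags in every sample. At the same thresholds (p below 0.01, FDR below 0.1), 0 of the 53 motor genes were called, against 0.584% of all genes. An unadjusted p below 0.05 was found for 10 motor genes (18.9%), against 8.76% of all genes, with 8 higher in *Qk* cKO (15.1%, against 4.33% of all) and 2 lower (3.77%, against 4.43%). The 8 were all mitotic kinesins. Motor genes called were also 0 with DESeq2 (0.430% of all genes called), edgeR's exact test (0.303%), upper-quartile scaling (0.531%) and edgeR's filterByExpr (0.0712%). In bulk RNA, fewer cells of a type and less RNA per cell cannot be told apart.

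The 13 kinesins listed here as mitotic, a list made with earlier results of these data known, all had a log2 fold change above 0 in *Qk* cKO. Their median was 0.16, while the median of the 12569 genes with a mean RPKM of at least 1 in both groups was 0.00183. Of those genes, 50.6% lay above 0. In 9 of the 13 mitotic kinesins, both *Qk* cKO samples were above both controls, against 17.9% of all genes at this level. The summed RPKM of the 13 was 277.03 and 253.9 in control and 291.4 and 285.9 in *Qk* cKO. The count above 0 was 12 of 13 without control replicate 2 and 11 of 13 without *Qk* cKO replicate 1. Under upper-quartile scaling and DESeq2 it was 13.

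*Kif20b*, whose product acts in the last step of cell division, had the smallest p-value of the motor genes. Its level was 10.7 and 8.35 RPKM in control and 11.7 and 12.6 RPKM in *Qk* cKO (log2 fold change 0.36 ± 0.10 SE, edgeR, FDR = 0.151). *Kif18a*, which aligns chromosomes at the spindle equator, was at 2.60 and 2.41 RPKM in control and 3.09 and 3.40 RPKM in *Qk* cKO (log2 fold change 0.39 ± 0.11 SE, edgeR, FDR = 0.201). Neither gene overlapped between the groups. The log2 fold change of *Kif20b* was 0.19 without control replicate 2, its lowest sample, and 0.55 without control replicate 1, while that of *Kif18a* stayed between 0.33 and 0.44 with each sample left out. Both missed the FDR threshold. Both passed it with the replicate number as a block (edgeR, FDR = 0.056 for *Kif20b* and 0.0726 for *Kif18a*), where 1.02% of all genes were called, and without *Qk* cKO replicate 1 (edgeR, FDR = 0.0372 and 0.0678), where 2.30% of all genes were called. *Kif11*, the kinesin-5 that pushes spindle poles apart, was at 43.2 and 40.7 RPKM in control and 46.7 and 48.3 RPKM in *Qk* cKO (log2 fold change 0.19 ± 0.06 SE, edgeR, FDR = 0.241). *Kif23* was at 22.1 and 19.1 RPKM in control and 23.6 and 22.9 RPKM in *Qk* cKO (log2 fold change 0.18 ± 0.07 SE, edgeR, FDR = 0.344), and its log2 fold change was 0.08 without control replicate 2 and 0.29 without control replicate 1. The other mitotic kinesins with an unadjusted p below 0.05, *Kif14*, *Kif4*, *Kif15* and *Kif2c*, had log2 fold changes between 0.14 and 0.23. *Kif22*, *Kif20a*, *Kif2c* and *Kif24* overlapped between groups. *Kifc1* shares 53.2% of the 31-nt words of its transcripts with *Kifc5b*, so the split of tags between these 2 genes is uncertain.

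Markers of dividing cells moved with the mitotic kinesins. All 8 markers (*Mki67*, *Top2a*, *Ccnb1*, *Cdk1*, *Aurkb*, *Bub1*, *Plk1* and *Ccna2*) had a log2 fold change above 0, with a median of 0.17, and 2 of them were called higher, *Bub1* (log2 fold change 0.29, edgeR FDR = 0.0459) and *Ccna2* (0.26, edgeR FDR = 0.0713). Their summed RPKM was 450.7 and 390.4 in control and 468.3 and 459.1 in *Qk* cKO. Control replicate 2 was the lowest sample in both sums. Without it, 6 of the 8 markers lay above 0 with a median of 0.07, without control replicate 1 the median was 0.26, and without *Qk* cKO replicate 1 7 of the 8 lay above 0. Of 8 radial glia markers, 3 were above 0, and *Fabp7* and *Slc1a3* were called lower (log2 fold change −0.45 and −0.23, edgeR FDR = 0.0153 and 0.0887). Of all genes tested, 0.584% were called, higher or lower, against 2 of the 8 markers of dividing cells and 2 of these 8. The summed radial glia markers were at 1633 and 1512 RPKM in control and at 1329 and 1267 in *Qk* cKO, and *Fabp7* alone made up most of this difference, with a mean of 944.9 RPKM in control and 684.6 in *Qk* cKO. *Sox2*, *Hes5* and *Vim* had log2 fold changes of −0.29, −0.19 and −0.01 and were not called (edgeR, FDR = 0.213, 0.71 and 0.982). *Pax6*, *Hes1* and *Nes* had log2 fold changes of 0.08, 0.08 and 0.04. Of 5 interneuron markers, 4 were above 0 without overlap (median 0.14), and their sum was 125.5 and 130.8 RPKM in control and 133.9 and 135.2 in *Qk* cKO. Of all genes with a mean RPKM of at least 1 in both groups, 17.9% were higher without overlap. Of the 8 markers of dividing cells, 4 were higher without overlap. Of the 8 radial glia markers, 1 was higher without overlap and 4 were lower, for which no share over all genes is given here. Of 5 markers of meninges and mesenchyme, 4 were above 0 (median 0.21), with a sum of 126.7 and 116.03 RPKM in control and 115.7 and 155.4 in *Qk* cKO. None of these interneuron or meningeal markers was called. The part of these cell populations in the levels of the mitotic kinesins was not tested.

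**Figure D4:**
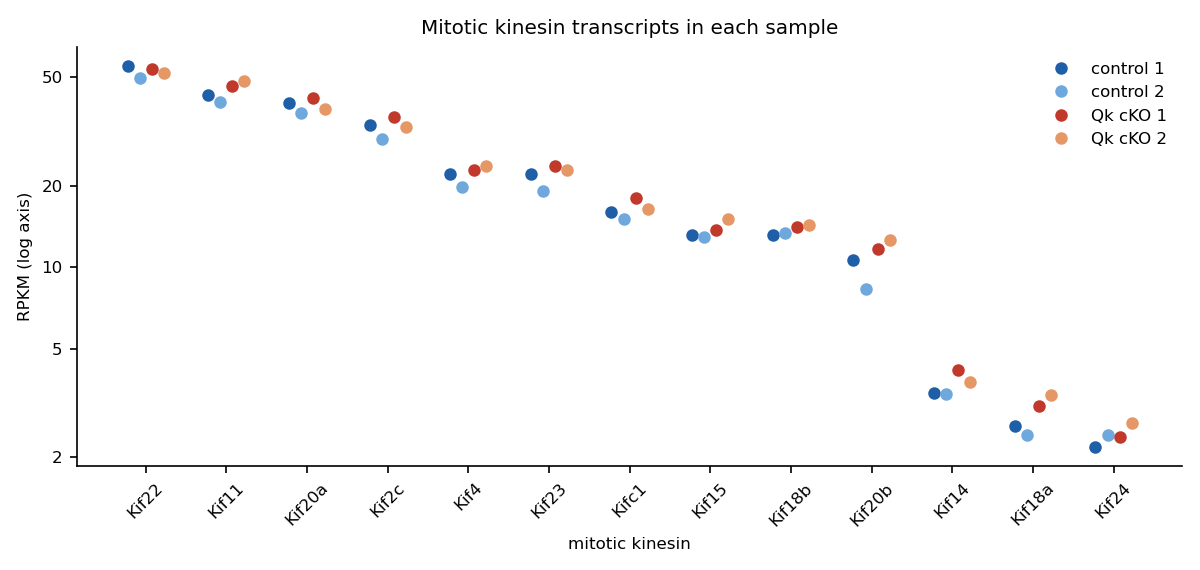
Level of each of the 13 mitotic kinesins in RPKM (vertical log axis) in each of the 4 samples, ordered by mean level along the horizontal axis. Blue points are the 2 controls and red points the 2 *Qk* cKO samples. In 9 genes both red points lie above both blue points, among them *Kif20b* with 10.7 and 8.35 RPKM in control and 11.7 and 12.6 RPKM in *Qk* cKO.

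The transport kinesins held the most abundant motor transcripts and differed little between the groups. Of 15 tested, 11 had a log2 fold change above 0 and 4 below, with a median of 0.03 (0.0023 to 0.046 with each sample left out), and 0 had an unadjusted p below 0.05. *Kif5c*, a heavy chain of conventional kinesin, was the highest motor transcript per length, at 132.4 and 139.5 RPKM in control and 142.5 and 138.4 RPKM in *Qk* cKO (log2 fold change 0.06 ± 0.08 SE). *Kif21b* followed with 127.2 and 131.8 RPKM in control and 125.5 and 125.9 RPKM in *Qk* cKO (−0.03 ± 0.08 SE). *Kif1a* was at 114.2 and 123.9 RPKM in control and 116.3 and 120.9 RPKM in *Qk* cKO (log2 fold change 0.01 ± 0.08 SE). These 3 transcripts kept this order in each sample, although the lowest *Kif5c* and the highest *Kif21b* sample were close, at 132.4 and 131.8 RPKM. *Kif1b*, which carries mitochondria and synaptic vesicle precursors, ranged from 63.7 to 66.1 RPKM over the 4 samples.

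None of the 6 genes with called splicing events was called changed in level. *Kif21a* was at 67.6 and 69.9 RPKM in control and 72.3 and 67.8 RPKM in *Qk* cKO (log2 fold change 0.04 ± 0.08 SE, edgeR, FDR = 0.915). *Kif16b* was at 3.37 and 3.45 RPKM in control and 3.73 and 3.34 RPKM in *Qk* cKO (0.07 ± 0.11 SE, edgeR, FDR = 0.907). Both overlapped between the groups. *Kif13a* was at 12.0 and 13.3 RPKM in control and 11.6 and 11.5 RPKM in *Qk* cKO, without overlap (log2 fold change −0.12 ± 0.07 SE, edgeR, FDR = 0.667), and its log2 fold change was −0.05 without control replicate 2 and −0.19 without control replicate 1. *Dync1i1*, *Dync1i2* and *Dctn1* are given with dynein and dynactin.

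Of the remaining 14 kinesins, 12 were tested, 9 of them with a log2 fold change below 0 and a median of −0.15. Without *Qk* cKO replicate 1 there were 6 on each side of 0, with a median of −0.06, and without control replicate 2 the median was −0.06 as well. Among kinesins with a mean RPKM of at least 1 in both groups that were lower in *Qk* cKO, 3 of the 4 with the smallest p-values came from here, and *Kif13a* was the other. *Kifc2*, a minus-end-directed neuronal kinesin, was at 6.46 and 7.42 RPKM in control and 5.68 and 5.79 RPKM in *Qk* cKO (log2 fold change −0.26 ± 0.11 SE, edgeR, FDR = 0.494). *Kifc3* was at 7.19 and 8.93 RPKM in control and 6.71 and 7.14 RPKM in *Qk* cKO (−0.20 ± 0.12 SE, edgeR, FDR = 0.685). *Kif26b*, a kinesin without motor activity, was at 3.49 and 4.01 RPKM in control and 3.36 and 3.24 RPKM in *Qk* cKO (−0.17 ± 0.11 SE, edgeR, FDR = 0.741). The groups did not overlap in any of these 3, which were picked for their small p-values. Without control replicate 2 their log2 fold changes were nearer to 0, at −0.16, −0.05 and −0.07. *Kif19a*, a kinesin of motile cilia named here after its values were seen, was the other gene with an unadjusted p below 0.05, with 83 and 60 tags in control and 29 and 51 in *Qk* cKO (log2 fold change −0.90 ± 0.35 SE, edgeR, FDR = 0.414). Its level was under 1 RPKM in each sample. Of the ciliated cell markers, *Ccdc153* was listed at 0 in every sample and *Foxj1* was at 5.61 and 6.20 RPKM in control and 3.57 and 5.59 RPKM in *Qk* cKO (log2 fold change −0.36 ± 0.16 SE, edgeR, FDR = 0.541), with the lowest sample the same as for *Kif19a*. The part of ciliated cells in the level of *Kif19a* was not tested. *Kif12* had 0 and 1 tags in the controls and 0 and 3 in the *Qk* cKO samples, too few for a comparison.

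Dynein and dynactin transcripts were at similar levels in both groups. Of the 7 dynein genes, 5 had a log2 fold change above 0 (median 0.03), and 4 did without control replicate 2 or without *Qk* cKO replicate 1. The heavy chain gene *Dync1h1* was at 110.7 and 115.4 RPKM in control and 113.03 and 113.2 RPKM in *Qk* cKO (log2 fold change 0.01 ± 0.08 SE), and *Dync1i2* (log2 fold change 0.03 ± 0.08 SE), *Dync1li2* and *Dync1li1* lay between 36.1 and 82.6 RPKM. The largest log2 fold change was that of *Dync1i1*, at 17.4 and 15.7 RPKM in control and 18.5 and 18.2 RPKM in *Qk* cKO, without overlap (0.17 ± 0.09 SE, edgeR, FDR = 0.667, and 0.09 without control replicate 2). The genes of dynein 2, the motor of return transport in cilia, differed in sign. *Dync2h1* was at 7.49 and 7.76 RPKM in control and 7.80 and 8.54 RPKM in *Qk* cKO (0.11 ± 0.06 SE), while *Dync2li1* overlapped between groups (−0.07 ± 0.10 SE).

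Of the 6 dynactin genes, 2 had a log2 fold change above 0, with a median of −0.05. *Dctn2*, the dynamitin gene, was the most abundant, with 128.8 and 123.97 RPKM in control and 124.6 and 109.7 RPKM in *Qk* cKO (log2 fold change −0.10 ± 0.07 SE, edgeR, FDR = 0.784). *Dctn1* was at 81.8 and 81.5 RPKM in control and 75.6 and 78.4 RPKM in *Qk* cKO, without overlap (−0.07 ± 0.07 SE, edgeR, FDR = 0.855). *Dctn3*, *Dctn6*, *Dctn5* and *Dctn4* overlapped between the groups and ranged from 23.1 to 95.9 RPKM. Without *Qk* cKO replicate 2, in which *Dctn2* and *Dctn3* were lowest, 5 of the 6 dynactin genes lay above 0, so the direction of this group depended on 1 sample.

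**Figure D5:**
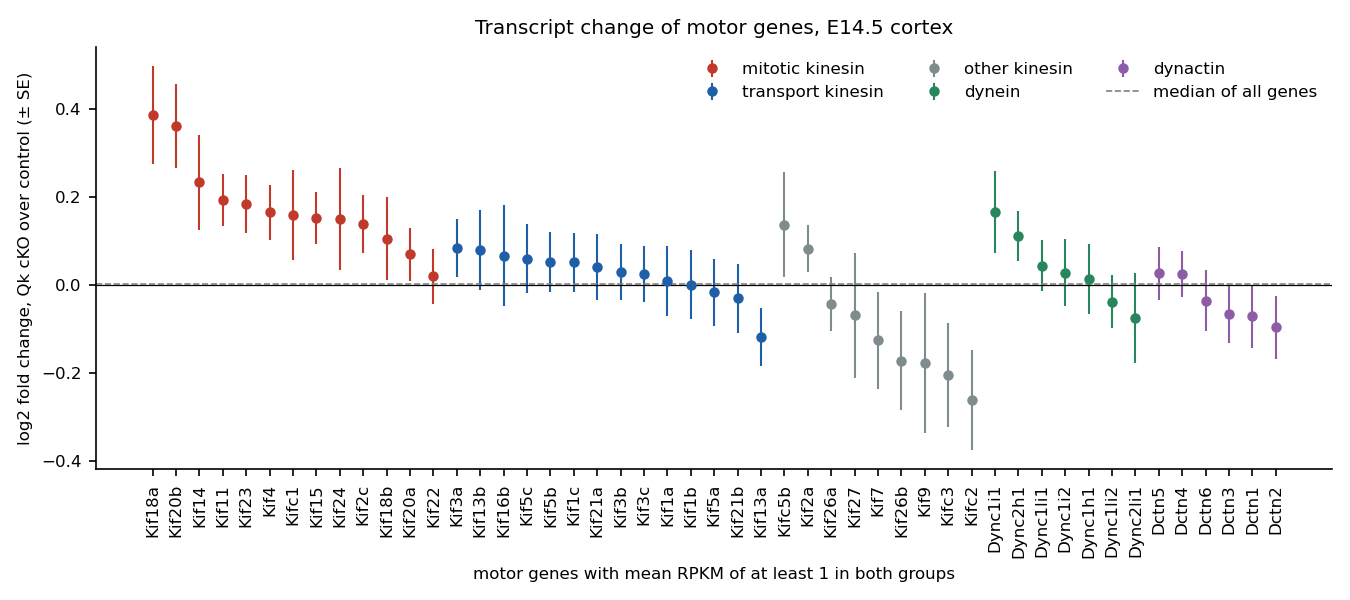
Log2 fold change of *Qk* cKO over control (vertical axis, with bars of 1 standard error from edgeR) for the 49 motor genes with a mean RPKM of at least 1 in both groups, grouped by role along the horizontal axis. The dashed line is the median of all genes at this level, 0.00183. The 13 mitotic kinesins all lie above 0 and the 14 transport kinesins within 0.12 of it.

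The adaptors and regulators of these motors, a list of 38 genes with kinesin light chains, dynein light chains, Lis1 and its partners and cargo adaptors, had 36 tested members, 15 with a log2 fold change above 0 and 21 below. One was called, against 0.584% of all genes. This was *Hook1*, which links dynein to endosomal cargo, at 12.7 and 12.8 RPKM in control and 15.3 and 16.6 RPKM in *Qk* cKO (log2 fold change 0.34 ± 0.07 SE, edgeR, FDR = 0.0348). The centromere kinesin *Cenpe*, a motor whose symbol kept it out of the kinesins above, was at 24.3 and 20.7 RPKM in control and 26.5 and 26.6 RPKM in *Qk* cKO (0.25 ± 0.07 SE, edgeR, FDR = 0.149). *Hook3*, a dynein adaptor of the same family as *Hook1*, was at 11.3 and 11.2 RPKM in control and 9.12 and 10.2 RPKM in *Qk* cKO (−0.21 ± 0.06 SE, edgeR, FDR = 0.16). The groups did not overlap in any of the 3, which were picked for their small p-values. Of the 36 adaptors, 8 were higher without overlap, against 17.9% of all genes with a mean RPKM of at least 1 in both groups. Another 9 were lower without overlap, for which no share over all genes is given here. Of 25 tested splicing events in 15 adaptor genes, 1 was called, against 7.50% of all tested events. It was an alternative 5′ splice site of the mitochondrial adaptor gene *Trak2*, used at 0.973 and 0.947 in control and at 0.889 and 0.876 in *Qk* cKO (Δ*I* 0.0761, Fisher's exact test, FDR = 0.0978, and edgeR interaction test, p = 0.0103, FDR = 0.9).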

How the data were processed

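Messenger RNA of embryonic cortex was selected by polyA and sequenced by the study, and the authors aligned the reads to mm10 with OLego and quantified genes and splicing events with Quantas. Tool versions were not given in the sources used here. The deposited values are estimated counts (tags per gene, isoform and junction, not always whole) and the RPKM that the authors calculated per gene. The members and lists were chosen with earlier results of these data known.

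Groups and replicate numbers came from the sample labels. Tags per gene were rounded, scaled by TMM and tested with edgeR 4.0.16 (R 4.3.3, quasi-likelihood, all genes with at least 1 tag), with standard errors from the F statistic. Isoform tags were summed over replicates, rounded and tested with Fisher's exact test (scipy 1.17.1) at a coverage of at least 20, with Benjamini-Hochberg adjustment within each of 6 event types, after the study's methods. Calls needed p below 0.01 and FDR below 0.1. RPKM values were used for levels only. Wilson intervals (95%) took the inclusion over the junction tags. Alternatives were DESeq2 1.42.0, edgeR's exact test, upper-quartile scaling, filterByExpr, junction tags only, coverage minimums of 10 and 50, adjustment over all types, the edgeR interaction test, the mean of replicates, a replicate block and each sample left out. With 1 sample left in a group, edgeR assumes that it varies like the other group. Exon positions and sequences are from GENCODE M21 (GRCm38, the same build as mm10), counted from 1. Named genes were the 5 kinesins with the highest mean RPKM, all dynein and dynactin genes, and, among kinesins with a mean RPKM of at least 1 in both groups, the 4 with the smallest p in each direction. Named events were every called event with an absolute Δ*I* of at least 0.1, up to 4 smaller ones, and the 6 uncalled events of highest coverage, 1 per gene. The 3 adaptors with the smallest p were added. The tests were run on simulated data. The simulated splicing events had no variation between embryos, so they could not show how Fisher's exact test handles it. The library kit does not mark strand, so antisense transcripts cannot be told apart.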

Additional observations from a re-analysis of the deposited data

How the results depend on the processing

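The count of called motor transcripts was 0 under DESeq2, edgeR's exact test, upper-quartile scaling and filterByExpr, 2 with the replicate number as a block, and 0 to 2 with each sample left out, with or without the RPKM minimum of 1; the 2 were *Kif18a* and *Kif20b*. The 14 called splicing events became 9 at a coverage of at least 50, 0 with the edgeR interaction test and 4 to 11 with each sample left out, the lowest without control replicate 1, and 9 when events with the same outer splice sites were counted once, an alternative chosen after the data were seen. With an absolute Δ*I* of at least 0.1, 7 became 3, 0 and 2 to 8 under the first 3 of these. With the replicate block (a Cochran-Mantel-Haenszel test) 14 events were called, 13 of them among the 14 of the main test. The counts are of all events called under a setting. Without either control replicate or without *Qk* cKO replicate 1 they included events outside the 14. The labels do not say what a number marks. Deviations from the group mean correlated at 0.534 between samples of the same number over 12958 genes, at −0.0645 over the 12462 autosomal genes among them and at 0.0106 over 6965 events, so the numbers were not taken as pairs. The log2 fold change of *Kif1b* turned to −0.0075 under upper-quartile scaling, −5.16e-05 under DESeq2 and −0.000626 under filterByExpr. With each sample left out, values near 0 changed sign: *Kif1b* −0.033 to 0.029, *Kif1a* −0.047 to 0.064, *Kif21a* −0.020 to 0.096, *Dync1h1* −0.013 to 0.039, *Dync1i2* −0.0041 to 0.056, *Dync2li1* −0.15 to 0.00046, *Dctn2* −0.20 to 0.0019, *Dctn3* −0.17 to 0.024, *Dctn4* −0.0031 to 0.050, *Dctn5* −0.0022 to 0.053 and *Dctn6* −0.096 to 0.020. So did the Δ*I* of the *Dctn1* exon choice (−0.038 to 0.056) and the *Kif2a* exon (−0.105 to 0.0307). The other fold changes and Δ*I* values of named genes and events kept their sign in the settings that could be run. With 1 sample left out, the 3 *Dctn1* calls could be tested in 2 of 4 settings (not with a control left out), the *Dync1i1* site in 2 and the *Kif16b* exon in 3, since their coverage fell under 20 in the others. The cause of the changes was not tested. Of the 7 calls with an absolute Δ*I* of at least 0.1, the 3 *Dctn1* events (coverage 22.1) and the *Dync1i1* site (24.0) could not be tested at a coverage of 50.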
